A study of Mus musculus with 16 samples.

Results

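The 16 arrays of this mouse melanoma experiment were compared as 8 irradiated tumours against 8 unirradiated tumours. The tumours were B16-BL6, a pigmented melanoma line of C57BL/6J origin, carried by male C57BL/6J mice aged 8 weeks. The irradiated tumours were the 4 labelled Xray and the 4 labelled ALA+Xray. The unirradiated tumours were the 4 labelled control and the 4 labelled ALA control. ALA is 5-aminolevulinic acid, the first committed precursor of heme, from which cells also make the photosensitiser protoporphyrin IX. It was given locally at 50 mg/kg, in the ALA+Xray group before fractionated X-ray. Samples were assigned by their titles alone, and all 16 samples of the series were used. The effect of X-ray was taken as the mean of 2 differences, Xray minus control and ALA+Xray minus ALA control, so that ALA was balanced between the sides. The labels name no mutant allele, the tumour was 1 cell line, and they describe each array as its own tumour preparation, so p-values measure the spread between these preparations. The radiation dose, the number of fractions and the time from irradiation to RNA are not given in the sources used here.

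Ionising radiation breaks DNA, and the kinases that sense the breaks stabilise the transcription factor p53. p53 switches on Cdkn1a, whose product p21 inhibits cyclin-dependent kinases, and the genes of DNA replication and mitosis, which need the E2F factors and the late cell-cycle complexes, are then expressed less. DNA that leaks into the cytoplasm of irradiated cells can also start type I interferon signalling, which turns on antiviral genes and antigen presentation, and dying tumour tissue attracts macrophages. A bulk tumour array reads all of these cells together, so that a fall in a gene through fewer cells of a type and a fall through less RNA per cell cannot be told apart.

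Levels are given as log2 signal relative to the 75th percentile of the same array, each from 1 probe per gene. A gene was called when the adjusted p of limma's moderated test (Benjamini-Hochberg over 15399 genes) was under 0.05. Of the 15399 genes, 3917 were called, which is 25.4%. Of these, 1588 (10.3%) were higher and 2329 (15.1%) were lower in irradiated tumours. A change of at least 2-fold was seen in 606 called genes, and most of these rose (500 higher, 106 lower). The 8 irradiated and 8 unirradiated values did not overlap for 493 genes (3.2%), of which 201 (1.31%) were higher and 292 (1.9%) lower. The median difference over all genes was -0.06, with -0.02 without ALA and -0.13 with ALA. Per gene, the differences without and with ALA were only weakly related over all genes tested (Pearson r = 0.08, Spearman rho = 0.27, a description across genes, which are not independent). The 2 differences share no array but share the slides.

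The genes named here for the largest rises with no overlap were not in the lists of p53 targets or DNA repair genes described below. Wfdc3, a whey acidic protein family member (probe at chr2:164556858-164556917, mm9), lay at -3.82 to -2.42 (median -3.08) in unirradiated tumours and at -1.69 to 3.21 (median 0.70) in irradiated ones. Every irradiated tumour exceeded every unirradiated one, and the difference was 3.89 (SE 0.43, 14.8-fold, limma adjusted p = 0.000429). Bglap, which encodes the bone matrix protein osteocalcin (chr3:88187557-88187616), was not well above background on any of the 8 unirradiated arrays and was on all 8 irradiated ones. It entered the test through the irradiated group alone, so its p-value and calls are a description and no separate support. With the background correction used here its rise was at least 7.91-fold (limma adjusted p = 0.000881). This bound sets the irradiated mean against the lowest signal that counted as well above background. With normexp background correction (offset 50) its fitted difference was 1.50 in log2, against 3.77 here, which is smaller than that bound. Pak3, a p21-activated kinase (chrX:140231991-140232050), was well above background on 1 unirradiated and 8 irradiated arrays, and ran from -6.59 to -3.76 (median -5.52) in the former and from -3.32 to -0.75 (median -1.50) in the latter. The difference was 3.62 (SE 0.39, adjusted p = 0.000319), and 0.93 with normexp. Other large rises without overlap were between 2.09 and 2.66: Plscr2 (a phospholipid scramblase), Trim12a, B3galt5 (a galactosyltransferase), Slc13a4 (a sulfate transporter), Tmem40, Scml4, Slc41a2 (a magnesium transporter) and Tmem82. Their size depended on the background correction where signal was dim: with normexp the differences were 0.51 for Scml4, 0.87 for Slc13a4, 0.92 for Tmem82, 1.07 for Slc41a2 and 2.56 for Wfdc3.

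The largest falls without overlap were led by Tenm4, a teneurin cell-adhesion protein (chr7:104055032-104055091). It lay at 0.43 to 1.77 (median 0.70) in unirradiated tumours and at -3.73 to 0.26 (median -1.30) in irradiated ones. The difference was -2.37 (SE 0.24, 5.18-fold lower, adjusted p = 0.00025), with -1.27 without ALA and -3.48 with ALA. Mecom, a zinc finger transcription factor (chr3:29850924-29850983), went from a median of 1.83 (range 1.32 to 2.19) to -0.08 (range -0.66 to 1.11), a difference of -1.74 (SE 0.17, adjusted p = 0.00025). Cyp26b1, which degrades retinoic acid, fell by 1.60 (SE 0.16, adjusted p = 0.00025), and Rxrg, a retinoid X receptor, by 1.37 (SE 0.26, adjusted p = 0.00301). Other large falls were Epyc (a small proteoglycan, -2.19), Fdft1 (squalene synthase, -1.60), Nr4a3 (an orphan nuclear receptor, -1.50), Insig1 (a sterol sensor partner, -1.30), Cdca7 (-1.26), Fbxl7 (an F-box protein, -1.22) and Slc39a4 (a zinc importer, -1.21). Epyc was well above background on 7 unirradiated and 1 irradiated arrays, and Nr4a3 on 8 unirradiated and 2 irradiated ones. Both passed the filter on dim probes only with their unirradiated arrays, so that their calls are a description. The sizes of these 2 falls rest on irradiated signals mostly near background. With normexp Epyc was at -0.75 and Nr4a3 at -0.55. Tenm4, Mecom, Cyp26b1, Wfdc3, Bglap and Pak3 stayed called under every alternative that gave them a value. Bglap and Pak3 passed the filter on dim probes only with their irradiated arrays, so that their calls are a description. The same holds for Scml4, which was well above background on 1 unirradiated and 8 irradiated arrays.

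p53 target genes were higher in irradiated tumours, with and without ALA. Of 39 measured targets 20 rose (51.3%, against 10.3% of all genes), 3 fell (7.69%, against 15.1%) and 16 were not called. Their median difference was 0.47, against -0.06 over all genes. The median was 0.38 without ALA and 0.48 with ALA, and 0.31 to 0.57 on the 4 slides taken one at a time. Cdkn1a, the cell-cycle inhibitor p21 (chr17:29237377-29237436), lay at 1.34 to 2.40 (median 1.78) in unirradiated and at 3.02 to 4.13 (median 3.50) in irradiated tumours. The groups were clearly apart, with a difference of 1.75 (SE 0.15, 3.36-fold, adjusted p = 0.000158), 1.52 without ALA and 1.99 with ALA. Phlda3, a p53-induced inhibitor of Akt (chr1:137665642-137665701), ran from 5.26 to 5.65 (median 5.33) without and from 5.87 to 7.31 (median 6.45) with irradiation. Its difference was 1.04 (SE 0.16, adjusted p = 0.00137). Ccng1 (cyclin G1) went from 1.85 to 2.99 (median 2.63) to 3.23 to 5.00 (median 3.60), a difference of 1.28 (SE 0.21, adjusted p = 0.00179).

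Other targets also had groups that did not overlap. Polk, a DNA polymerase that copies past damage, rose by 0.87 (SE 0.11, adjusted p = 0.000547), Bcl2l1, which encodes the survival factor Bcl-xL, by 0.92 (SE 0.12, adjusted p = 0.000619), Ak1 (adenylate kinase) by 1.38 and Trp53inp1 by 1.35. Mdm2, the ubiquitin ligase that degrades p53, lay at 1.21 to 1.51 (median 1.31) in unirradiated and at 1.52 to 2.65 (median 1.82) in irradiated tumours, a difference of 0.59 (SE 0.13, adjusted p = 0.00666). The highest unirradiated and the lowest irradiated value of Mdm2 were almost equal. Bax, the textbook apoptotic target, had a median of 3.62 in unirradiated and 3.60 in irradiated tumours, a difference of -0.05 (SE 0.08, adjusted p = 0.695). The targets that went the other way were 3: Gdf15, a stress cytokine (-0.92, adjusted p = 0.0214), Tigar, a regulator of sugar use (-0.64, adjusted p = 0.00221), and Ddb2, a nucleotide excision repair factor (-0.26, adjusted p = 0.0315). Cdkn1a, Phlda3, Polk, Bcl2l1, Ak1, Trp53inp1 and Ccng1 stayed called under every alternative, whereas Mdm2 was lost when all probes of a gene were averaged, with the macrophage level as a covariate and without slide 2.

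**Figure D1:**
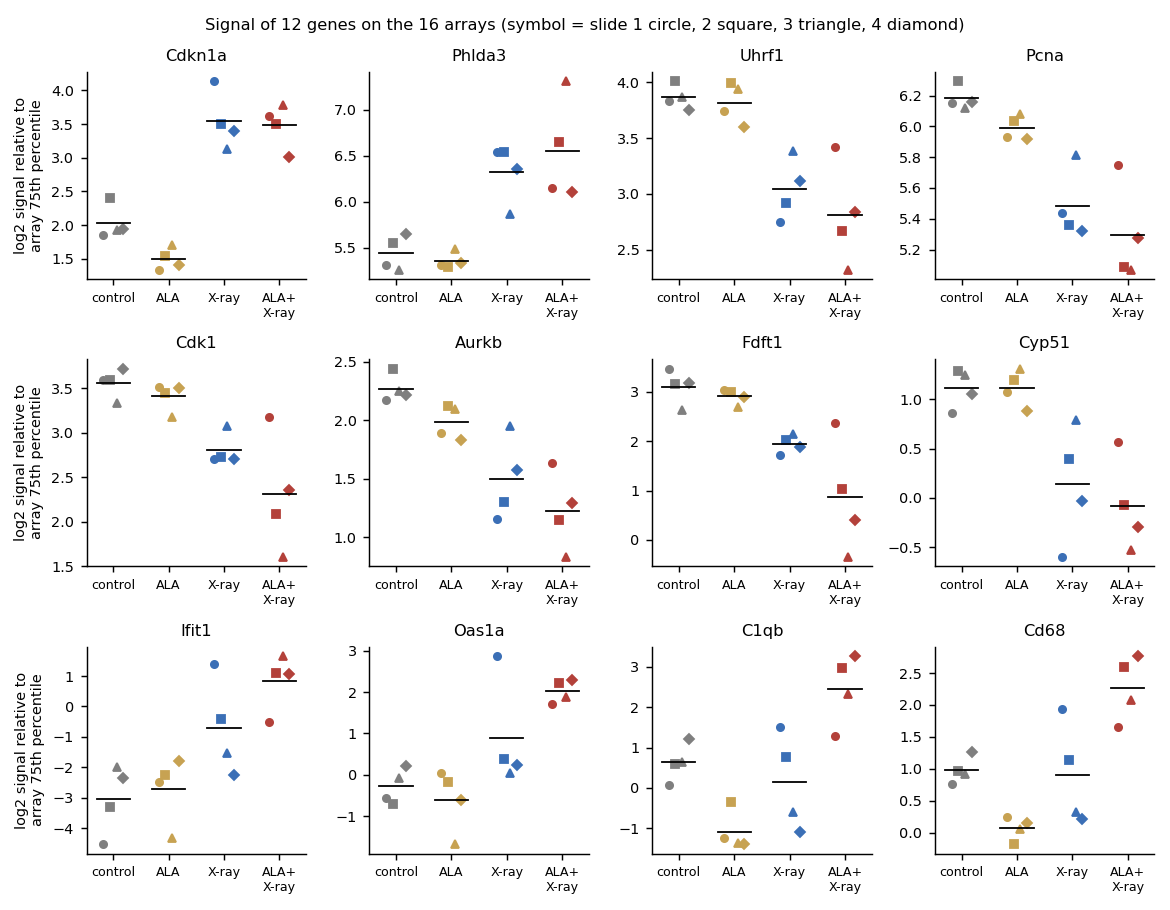
Log2 signal relative to the 75th percentile of the array (vertical axis) of 12 genes on the 16 arrays, by group, with 1 symbol per slide and a bar at each group mean of 4 arrays. Cdkn1a lay at 3.02 or above in all 8 irradiated tumours and at 2.40 or below in all 8 unirradiated ones, whereas C1qb and Cd68 were high mainly in the ALA+Xray group.

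Genes of DNA replication fell almost as a block. Of 48 measured members of the G1/S and DNA replication list 45 fell and 0 rose (93.8% lower, against 15.1% of all genes), and all 48 had a difference below 0. The median difference was -0.79, -0.69 without ALA and -0.88 with ALA, and -1.03 to -0.45 on single slides. In 18 of the 48 genes the 8 irradiated and 8 unirradiated values did not overlap, against 3.2% of all genes (1.9% lower). Pcna, the sliding clamp of the replication fork (chr2:132075420-132075557), lay at 5.92 to 6.29 (median 6.10) in unirradiated and at 5.07 to 5.81 (median 5.34) in irradiated tumours. The difference was -0.70 (SE 0.11, 1.62-fold lower, adjusted p = 0.00117) and was -0.70 both with and without ALA. Uhrf1, which carries DNA methylation through replication (chr17:56462657-56462716), went from 3.60 to 4.01 (median 3.85) to 2.32 to 3.42 (median 2.88), a difference of -0.92 (SE 0.14, adjusted p = 0.00124). Ung, the uracil glycosylase that follows the fork, fell by 0.80 (SE 0.10, adjusted p = 0.000547), the helicase subunit Mcm4 by 0.77, the single-strand binding subunit Rpa2 by 0.67 and the polymerase epsilon subunit Pole2 by 0.84. Of these 4, Pole2 alone had an irradiated value inside the unirradiated range.

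The promoters of these genes were read for the E2F motif, since E2F factors drive them at the start of S phase. The windows ran from 250 bases before to 50 bases after the gene start (RefSeq, GRCm38.p6), and 39 of the 48 genes had one. The letters searched were TTTCCCGC, TTTCGCGC and TTTGGCGC on both strands, and 12 of the 39 windows held 1 of them (30.8%). The share was 3.46% over the 10125 tested genes with a window, 7.78% of the called lower genes and 1.53% of the called higher genes. A match is a description of the letters and not a measured site. The 100 bases upstream of 3 replication genes that hold the motif were picked after their values were known as called members of small p, and the motif is in capitals. Rfc3 loads the clamp (chr5:151651209-151651308, minus strand), Gins3 is part of the replicative helicase (chr8:95633459-95633558, plus strand) and Mcm6 is a helicase subunit (chr1:128359706-128359805, minus strand).
Rfc3: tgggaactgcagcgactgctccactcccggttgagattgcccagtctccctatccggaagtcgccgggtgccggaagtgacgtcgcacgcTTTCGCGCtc
Gins3: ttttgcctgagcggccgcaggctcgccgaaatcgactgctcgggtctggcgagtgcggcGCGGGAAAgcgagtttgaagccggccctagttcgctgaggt
Mcm6: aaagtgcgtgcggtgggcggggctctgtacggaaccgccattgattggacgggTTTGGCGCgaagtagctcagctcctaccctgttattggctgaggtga
The level of Rfc3 fell by 0.87 (SE 0.15, adjusted p = 0.00196), that of Gins3 by 0.63 (SE 0.12, adjusted p = 0.00296) and that of Mcm6 by 0.89 (SE 0.18, adjusted p = 0.00422). For Mcm6, all 8 irradiated values (4.68 to 6.34) were below all 8 unirradiated ones (6.37 to 6.74).

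Mitotic genes fell too, by less and with more overlap. Of 43 measured members of the mitosis and G2/M list 35 fell (81.4%, against 15.1% of all genes) and 0 rose, and the median difference was -0.58. Only 2 of the 43 had no overlap, which is near the share over all genes (3.2%). The median was -0.41 without ALA and -0.76 with ALA, and the count of falls was 13 with array median scaling. Cdk1, the kinase that starts mitosis (chr10:68805423-68807832), lay at 3.17 to 3.72 (median 3.51) in unirradiated and at 1.60 to 3.18 (median 2.70) in irradiated tumours. The ranges met at their edges, and the difference was -0.93 (SE 0.17, adjusted p = 0.00288). Aurkb, the Aurora kinase of the spindle checkpoint, fell by 0.76 (SE 0.13, adjusted p = 0.00184), the checkpoint protein Mad2l1 by 0.65 (SE 0.12, adjusted p = 0.00288), Cks1b (a Cdk subunit) by 0.60, Spc25 (a kinetochore protein) by 0.52 and the checkpoint kinase Ttk by 0.85. Ccnb1, cyclin B1, fell by 0.60 (SE 0.18, adjusted p = 0.0271). Mki67, the proliferation marker, ran from 4.87 to 5.27 (median 4.98) in unirradiated and from 3.02 to 5.11 (median 4.52) in irradiated tumours, a difference of -0.65 (SE 0.23, adjusted p = 0.0546) that was not called.

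Promoters of late cell-cycle genes often carry the cell cycle homology region, a short element named CHR. The letters TTTGAA and TTCGAA were searched on both strands, and 28 of the 36 mitosis genes with a window held 1 (77.8%), against 13.9% of all tested genes and 15.4% of the replication genes. The E2F letters were in 1 of the 36 windows (2.78%). The upstream sequences of Cdk1 (chr10:69352913-69353012, minus strand) and Cks1b (chr3:89418292-89418391, minus strand), both in GRCm38.p6, show pairs of the element in capitals.
Cdk1: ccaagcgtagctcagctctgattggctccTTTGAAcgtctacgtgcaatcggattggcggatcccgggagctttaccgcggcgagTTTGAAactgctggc
Cks1b: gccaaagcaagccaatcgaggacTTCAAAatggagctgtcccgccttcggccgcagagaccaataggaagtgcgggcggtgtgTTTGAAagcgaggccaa

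DNA repair and checkpoint genes fell with the replication genes. Of 44 measured members 33 fell (75%, against 15.1% of all genes) and 0 rose, with a median of -0.50, -0.39 without ALA and -0.59 with ALA. With array median scaling 15 fell. Chek1, the checkpoint kinase of stalled forks, lay at -0.24 to 0.19 (median 0.08) in unirradiated and at -1.36 to -0.26 (median -1.01) in irradiated tumours. All irradiated values were lower, and the difference was -0.94 (SE 0.16, adjusted p = 0.00204). Exo1, a nuclease of mismatch and break repair, fell by 0.96 (SE 0.19, adjusted p = 0.00363), the Fanconi anemia gene Fancd2 by 0.71 (SE 0.13, adjusted p = 0.00296), Fancb by 0.83 and Xrcc4, which serves end joining, by 0.65. Exo1 and Fancd2 had separate groups, and Fancb and Xrcc4 overlapped.

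Cholesterol synthesis genes, which the SREBP factors switch on when sterols are low, were lower as well. Of 23 measured members 19 fell (82.6%, against 15.1%) and 0 rose, all 23 differences were below 0, and the median was -0.72 (-0.53 without ALA, -1.0 with ALA). Fdft1, squalene synthase (chr14:63765769-63770009), lay at 2.63 to 3.47 (median 3.02) in unirradiated and at -0.34 to 2.37 (median 1.80) in irradiated tumours. The groups were apart, with a difference of -1.60 (SE 0.28, 3.03-fold lower, adjusted p = 0.00231). Cyp51, which demethylates lanosterol, lay at 0.86 to 1.31 (median 1.13) in unirradiated and at -0.60 to 0.79 (median -0.05) in irradiated tumours, a difference of -1.08 (SE 0.19, adjusted p = 0.00218). Msmo1 (a methylsterol oxidase) fell by 0.96 and Sqle (squalene epoxidase) by 0.72, both without overlap. Hmgcs1, the synthase ahead of the statin target, fell by 0.94 (SE 0.17, adjusted p = 0.00255), with overlap.

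Ribosome biogenesis genes showed the same direction. Of 30 measured members 20 fell (66.7%, against 15.1%) and 0 rose, and the median was -0.49 (-0.40 without ALA, -0.59 with ALA). With array median scaling 9 fell. Dkc1, dyskerin, which modifies ribosomal RNA, went from -0.88 to -0.25 (median -0.41) to -1.87 to -0.74 (median -1.61), a difference of -1.03 (SE 0.16, adjusted p = 0.00139). Its ranges met at 1 unirradiated array, ALA control 1, the lowest at -0.88. Nolc1, a nucleolar chaperone, fell by 1.11 (SE 0.21, adjusted p = 0.00277), the nucleolar helicase Ddx21 by 0.67 and the cap-binding factor Eif4e by 0.40, all without overlap. Gar1 fell by 0.96 and Nop56 by 0.67, both proteins of small nucleolar particles, with overlap. Of 32 genes of the unfolded protein and ATF4 response, 7 fell (21.9%, against 15.1% of all genes) and 1 rose (3.12%, against 10.3%), with a median of -0.08. The count of falls was 3 with array median scaling and 2 with the macrophage level of each array as a covariate. Asns (asparagine synthetase) fell by 0.91 (SE 0.15, adjusted p = 0.0015), the serine synthesis enzymes Psat1 and Phgdh by 0.78 each, and Atf4 itself by 0.62 (SE 0.18, adjusted p = 0.0229). Sesn2, a stress-induced regulator of growth signalling, rose by 0.83 (SE 0.17, adjusted p = 0.00401).

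**Figure D2:**
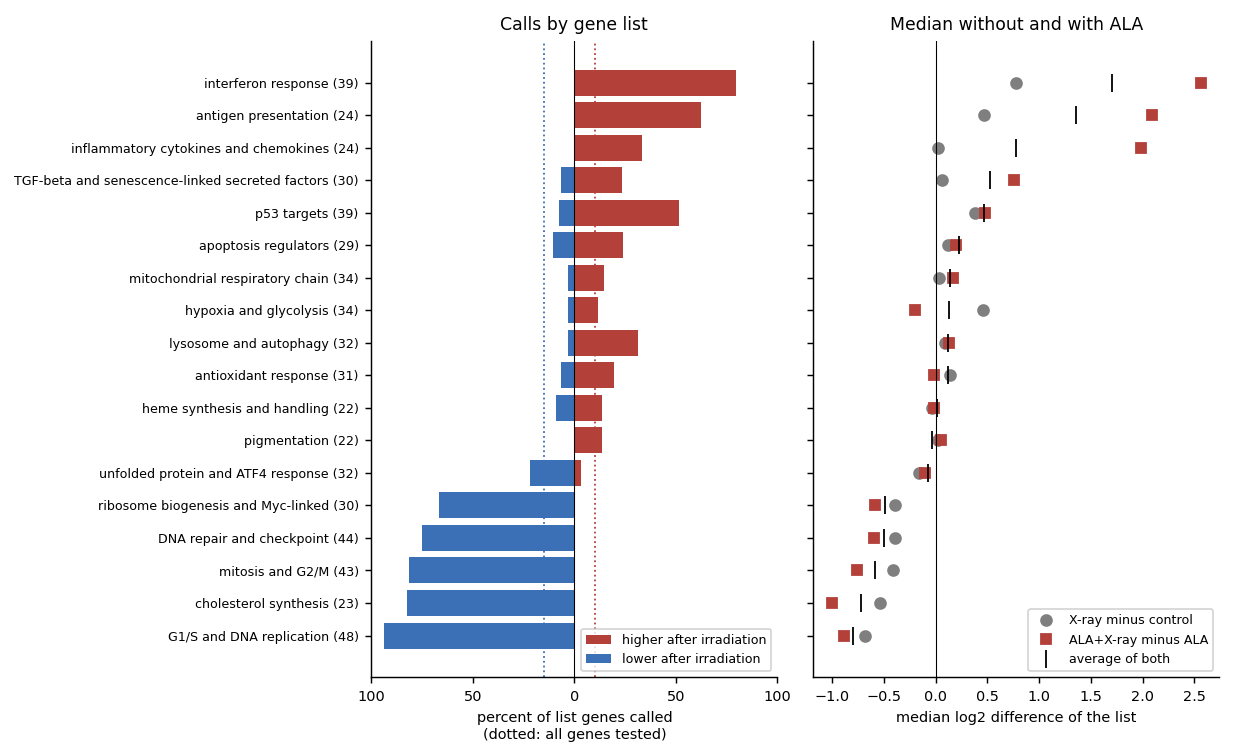
Left, percent of the measured genes of each of 18 lists that were called higher (right of 0) or lower (left of 0) in irradiated tumours, with the number measured in brackets and dotted lines at the shares over all genes (10.3% higher, 15.1% lower). Right, median log2 difference of each list without ALA, with ALA and averaged; the interferon list lies at 0.77 without and 2.56 with ALA, whereas the p53 targets lie at 0.38 and 0.48.

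Interferon response genes were higher in irradiated tumours, but the tumours were far less alike than for the cell-cycle genes. Of 39 measured members 31 rose (79.5%, against 10.3% of all genes), 0 fell, and none had groups without overlap (against 3.2% of all genes). The median difference was 1.70 (1.59 when genes near background were set at their bound), 0.77 without ALA and 2.56 with ALA. The mean level of the list was -1.61 to -0.49 on the control arrays and -1.70 to -0.66 on the ALA control arrays. It was 0.48 to 1.61 on the ALA+Xray arrays, all above the unirradiated ones. Among the Xray arrays it was 2.18 on replicate 1 and -1.12 to -0.42 on the other 3, which lay within or near the unirradiated range. Without Xray replicate 1 the median difference without ALA was 0.14, and the median averaged over ALA was 1.28.

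Ifit1, an antiviral protein that binds foreign RNA (chr19:34723796-34723855), lay at -4.53 to -1.78 (median -2.42) in unirradiated and at -2.25 to 1.66 (median 0.33) in irradiated tumours, a difference of 2.94 (SE 0.56, 7.69-fold, adjusted p = 0.00313). It was well above background on 5 unirradiated and 8 irradiated arrays, and the ranges overlapped. Oas1a, which makes the activator of RNase L, went from -1.67 to 0.21 (median -0.36) to 0.05 to 2.87 (median 1.79), a difference of 1.89 (SE 0.37, adjusted p = 0.00376). Mx2, a dynamin-like antiviral GTPase, rose by 2.17 (SE 0.43, adjusted p = 0.00403), Rsad2 (viperin) by 1.39, Samd9l by 1.15 and the ubiquitin ligase Trim25 by 0.80 (SE 0.13, adjusted p = 0.00153). The interferon motif (GAAA, any 2 bases, GAAA), searched on both strands, was in 14 of the 28 list windows (50%), against 3.03% of all tested genes, 5.77% of called higher genes and 2.33% of called lower genes. It is printed in capitals, overlapping matches as 1 run, for Ifit1 (chr19:34640759-34640858, plus strand) and Oas1a (chr5:120907526-120907625, minus strand), in GRCm38.p6.
Ifit1: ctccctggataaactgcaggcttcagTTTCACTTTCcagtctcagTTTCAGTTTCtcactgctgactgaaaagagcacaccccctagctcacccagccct
Oas1a: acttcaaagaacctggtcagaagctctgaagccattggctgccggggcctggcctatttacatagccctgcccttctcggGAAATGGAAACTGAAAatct

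Antigen presentation and chemokine genes moved with the interferon genes. Of 24 antigen presentation genes 15 rose (62.5%, against 10.3%) and 0 fell, the median being 1.36 (1.24 at bounds for dim genes), 0.47 without ALA and 2.09 with ALA. Without Xray replicate 1 the median without ALA was -0.17. H2-T23, a nonclassical class I molecule, lay at 1.80 to 2.63 (median 2.21) in unirradiated and at 2.28 to 5.38 (median 4.10) in irradiated tumours, a difference of 1.71 (SE 0.39, adjusted p = 0.00774). The immunoproteasome subunit Psmb8 rose by 1.93 (SE 0.50, adjusted p = 0.0143), Psmb10 by 0.95, the proteasome activator Psme2 by 0.79, the class II chaperone H2-DMb1 by 1.37 and H2-Q7 by 1.46. Because class I genes are near-identical copies, the probe of H2-Q7 or H2-T23 may read more than 1 of them.

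Of 24 cytokine and chemokine genes 8 rose (33.3%, against 10.3%) and 0 fell, and the median was 0.78, 0.02 without ALA and 1.99 with ALA. The count was 5 without control replicate 2, control replicate 4, ALA control replicate 2, Xray replicate 1 or ALA+Xray replicate 4. Ccl5, which attracts T cells (chr11:83339296-83339355), lay at -0.21 to 1.13 (median 0.16) in unirradiated and at 0.82 to 4.42 (median 3.38) in irradiated tumours, a difference of 2.84 (SE 0.43, 7.16-fold, adjusted p = 0.00117). Ccl5 stayed called under every alternative. Ccl8, a monocyte attractant, rose by 2.98 (SE 0.76, adjusted p = 0.0128), but its difference was -0.34 without ALA and 6.30 with ALA. Il33 rose by 1.71, Ccl6 by 1.96, Il18 by 0.51 and Tnfaip3, a brake on NF-kB, by 0.72, with adjusted p between 0.0179 and 0.0265.

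Markers of macrophages moved beside these genes. Of 17 macrophage and monocyte markers 8 rose (47.1%, against 10.3% of all genes) and 0 fell, with a median of 1.17, but the median was -0.94 without ALA and 3.39 with ALA. The mean level of the 17 was -0.40 to 0.99 on control, -2.35 to -0.43 on ALA control, -1.85 to 1.33 on Xray and 0.68 to 2.90 on ALA+Xray arrays. The highest Xray array was replicate 1, as for the interferon list. Cd68 rose by 1.06 (SE 0.23, adjusted p = 0.00623), the complement gene C1qb by 1.53 (SE 0.38, adjusted p = 0.011) and lysozyme Lyz2 by 1.12 (SE 0.32, adjusted p = 0.0212), and all 3 had a difference below 0 without ALA. Adgre1, which encodes the surface marker F4/80, differed by 1.44 (SE 0.51, adjusted p = 0.0511) and was not called. The count of called markers ranged from 3 (without control replicate 1, ALA+Xray replicate 2 or ALA+Xray replicate 4) to 14 (without ALA+Xray replicate 1), and was 4 with slide as a block and 0 in the model without an interaction term. The part of macrophages in the interferon, antigen presentation and cytokine results was not tested. With the macrophage level of each array as a covariate the calls in these lists were 2, 0 and 1. With the same covariate, calls over all genes went from 3917 to 458 and falls in the replication list from 45 to 9. Rises among p53 targets went from 20 to 8.

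Other tissue markers differed between single tumours more than between the sides. Skeletal muscle markers had a median difference of 1.56 with 0 of 15 called, and their mean level ran from -4.39 to 3.26 on unirradiated and from -4.30 to 4.61 on irradiated arrays. Fibroblast and matrix markers had a median of 0.97 with 0 of 17 called, -0.46 without ALA and 2.33 with ALA. Erythroid markers had a median of -1.16 with 0 of 5 called, 1.09 without ALA and -3.49 with ALA. Among lymphocyte markers 1 of 9 T and NK genes was called (11.1%, against 10.3% of all genes), and 0 with slide as a block or with normexp. The gene was the granzyme Gzmb, well above background on 0 unirradiated and 5 irradiated arrays, so that it entered the test through the irradiated group alone. Cd3e, the T cell receptor chain, differed by 0.48 (SE 0.41, adjusted p = 0.405), and 0 of 3 B cell and 0 of 3 neutrophil markers were called. Of 11 endothelial markers 2 fell (18.2%, against 15.1% of all genes), Cldn5 (-0.78, adjusted p = 0.0258) and Kdr (-0.56, adjusted p = 0.0335), and the clotting factor Vwf rose by 1.29 (SE 0.25, adjusted p = 0.00377). Pecam1 differed by -0.18 (adjusted p = 0.561). Of 11 pericyte markers 3 fell (27.3%, against 15.1%; 1 with array median scaling and 0 with the macrophage covariate), among them Cspg4 (-0.82) and Rgs5 (-0.75), and Mcam, which melanoma cells also carry, rose by 1.19 (SE 0.19, adjusted p = 0.00132).

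Markers of the melanoma itself were present on all arrays and moved little. Of 9 markers 2 rose (22.2%, against 10.3% of all genes) and 0 fell (against 15.1%), with a median of 0.03. With array median scaling 1 rose, and 1 with the macrophage covariate. S100b rose by 0.79 (SE 0.17, adjusted p = 0.0052) and the pigment enzyme gene Tyrp1 by 0.41 (SE 0.09, adjusted p = 0.00529), both without overlap. Tyr, the rate-limiting enzyme of melanin synthesis, had medians of 0.24 and 0.29 (difference -0.05, adjusted p = 0.811), and Mitf, the master regulator of pigment cells, differed by -0.47 (SE 0.16, adjusted p = 0.0508). In the pigmentation list 3 of 22 rose (13.6%, against 10.3%; 1 with array median scaling) and 0 fell: Tyrp1, the melanosome transporter Mlph (0.41) and Gpnmb (0.92, adjusted p = 0.000494), while the list median was -0.04.

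**Figure D3:**
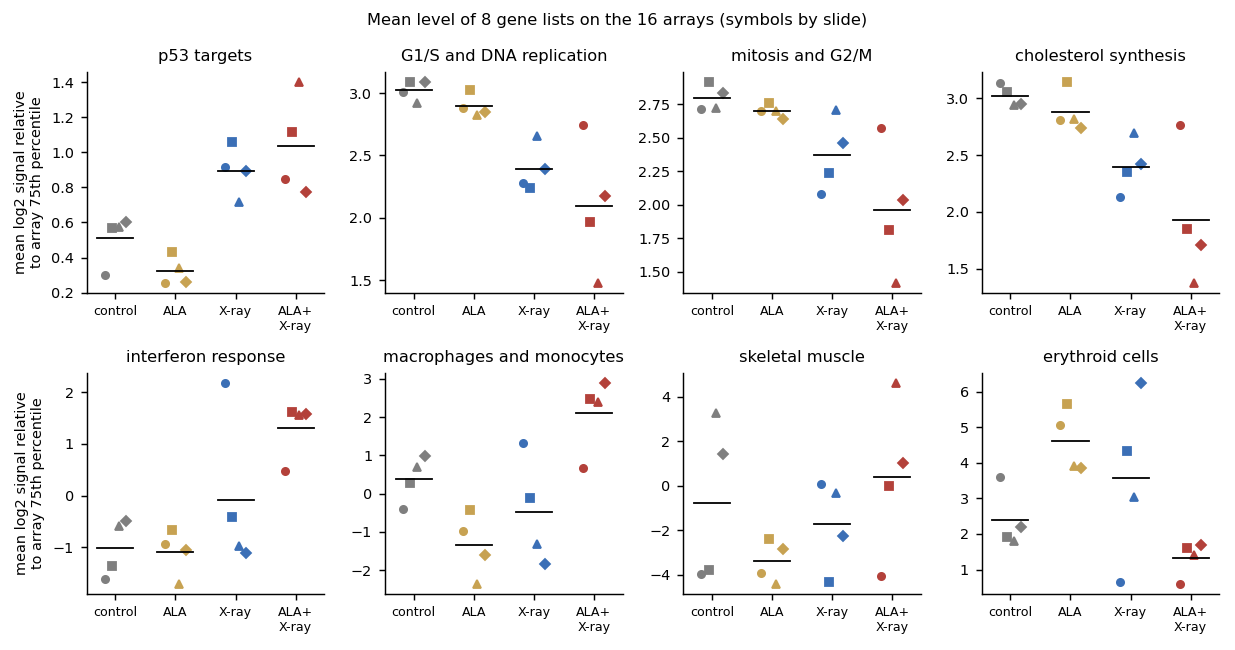
Mean log2 signal relative to the 75th percentile of the array (vertical axis) over the measured genes of 8 lists, on each of the 16 arrays by group, with 1 symbol per slide and a bar at the group mean. The replication list is lower on all 8 irradiated arrays than on any unirradiated one, whereas the interferon list is high on Xray replicate 1 (2.18) and the ALA+Xray arrays (0.48 to 1.61).

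Lists on cell death and on lysosomes showed smaller changes. Of 29 apoptosis regulators 7 rose (24.1%, against 10.3% of all genes) and 3 fell (10.3%, against 15.1%), with a median of 0.23. With the macrophage covariate 1 rose and 0 fell, and with array median scaling 5 rose and 0 fell. Apaf1, the scaffold of the apoptosome, rose by 0.48 (SE 0.10, adjusted p = 0.00386), the survival factor Mcl1 by 0.45, Bcl2 by 0.39, and the inflammatory caspases Casp4 by 1.06 and Casp12 by 2.70, while Casp2 fell by 0.41 and Fadd by 0.66. Casp12 was well above background on 1 unirradiated and 7 irradiated arrays, so that it passed the filter only with its irradiated arrays. Of 32 lysosome and autophagy genes 10 rose (31.2%, against 10.3% of all genes) and 1 fell (3.12%, against 15.1%), with a median of 0.11. The fall was that of Tfeb (-0.62). With the macrophage covariate 4 rose. Psap, the sphingolipid activator precursor, rose from 4.49 to 4.80 (median 4.61) to 4.87 to 5.57 (median 5.22), a difference of 0.57 (SE 0.08, adjusted p = 0.000658). The cathepsin Ctsd rose by 0.65 (SE 0.09, adjusted p = 0.000767), Ctsa by 0.59 and the sialidase Neu1 by 0.41; Psap, Ctsa and Neu1 had no overlap. Of 30 TGF-beta and senescence-linked factors 7 rose (23.3%, against 10.3% of all genes) and 2 fell (6.67%, against 15.1%), with a median of 0.52. The falls were those of Igfbp3 (by 0.58) and the lamin Lmnb1 (by 0.82). With the macrophage covariate 1 rose. Tgfbr2, the TGF-beta receptor, rose by 0.65 (SE 0.12, adjusted p = 0.00314), the matrix protein Ccn2 by 1.08, the protease Plat by 1.09 and Mmp3 by 2.72. Leaving out single arrays gave 3 to 13 higher genes in that list, the fewest without control replicate 2 or Xray replicate 2 and the most without ALA+Xray replicate 1.

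Other metabolic lists had fewer calls. In heme synthesis and handling 3 of 22 rose (13.6%, against 10.3% of all genes) and 2 fell (9.09%, against 15.1%), with a median of 0.01. Biliverdin reductase Blvrb rose by 0.73 (SE 0.15, adjusted p = 0.00481), the porphyrin-binding Tspo by 0.54 (SE 0.13, adjusted p = 0.00862) and Slc15a2 by 0.40, while Slc25a38, which brings glycine into mitochondria for heme, fell by 0.59 and Hrg by 0.85. Hmox1, which breaks heme down, differed by 0.10 (SE 0.28, adjusted p = 0.827). Of 31 antioxidant genes 6 rose (19.4%) and 2 fell (6.45%), with a median of 0.11, among them Prdx5 (0.64, adjusted p = 0.00614) and the regulator Nfe2l2 (0.31, adjusted p = 0.036). Of 34 respiratory chain genes 5 rose (14.7%) and 1 fell (2.94%), with a median of 0.14. Of 34 hypoxia and glycolysis genes 4 rose (11.8%) and 1 fell (2.94%), with a median of 0.13, and the list median was 0.46 without ALA and -0.20 with ALA. Calls in the antioxidant, respiratory chain and hypoxia lists moved by more than 1.5 times under several scalings, for example from 1 to 11 higher genes in the respiratory chain.

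The test of whether the X-ray difference itself changed with ALA called 189 genes (1.23%) by limma, 138 higher with ALA (0.896%) and 51 lower (0.331%). Of these 178 had differences of opposite sign without and with ALA, and 76 were also called for the average. No member of the p53, replication, mitosis, repair, interferon, antigen presentation or cholesterol lists was called, which does not show that the differences were alike. Of 17 macrophage markers 11 were called. Adgre1 had group means of 1.59 in control, -1.04 in ALA control, 0.14 in Xray and 3.29 in ALA+Xray, an interaction of 5.78 (SE 1.02, adjusted p = 0.0274). Trem2, a macrophage lipid receptor, had means of 1.50, -0.45, 0.71 and 3.70 in the same order, an interaction of 4.93 (SE 0.75, adjusted p = 0.0272). Both genes were highest in ALA+Xray and lowest in ALA control. The smallest p-values were those of Uox, Tlr7 and Otulinl, with interactions of 5.77, 5.53 and 4.67, all 3 well above background on few arrays (2 unirradiated and 4 or 5 irradiated). These sizes set ALA+Xray against signals mostly near background, and with normexp they were 1.31, 1.58 and 0.92. On the other side Pex5, Epha1 and Ptpn9 had interactions of -1.14, -1.54 and -0.97, each with an adjusted p of 0.0272, and Gp9, a platelet glycoprotein, -2.37 (SE 0.44, adjusted p = 0.0295). This count rests on single arrays: it was 1 without control replicate 3, ALA control replicate 4, ALA+Xray replicate 2 or ALA+Xray replicate 3, and 1065 without ALA+Xray replicate 1. It was 8 with slide as a block, 4 with the skeletal muscle level and 0 with the macrophage level as a covariate, with 2939 genes at an unadjusted p under 0.05 in the fit reported here. Uox kept its interaction call when any 1 array was left out, whereas Tlr7, Otulinl, Trem2, Pex5, Epha1, Ptpn9 and Gp9 each lost it without 1 array or another, and the last 5 of these with slide as a block too.

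**Figure D4:**
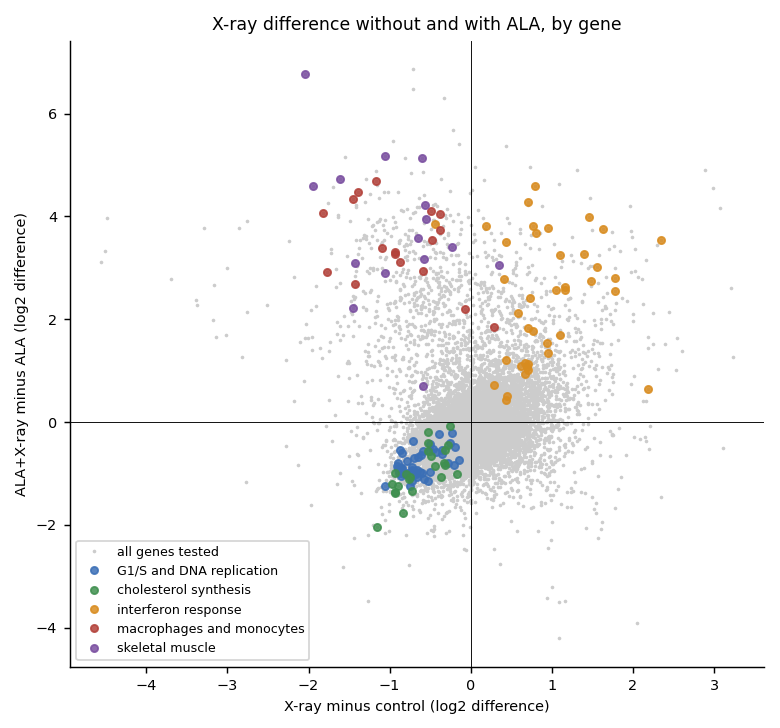
Log2 difference of each tested gene without ALA (Xray minus control, horizontal axis) and with ALA (ALA+Xray minus ALA control, vertical axis), with 5 lists in colour and all 15399 genes in grey. The replication and cholesterol genes lie below 0 on both axes, whereas macrophage and skeletal muscle markers lie mostly below 0 without ALA (list medians -0.94 and -0.65) and above 0 with ALA (3.39 and 3.58).

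Whether tissue content drove the number of calls was not tested. That number changed with the tumours in the fit, the scaling and a macrophage covariate, and was 2790 with a skeletal muscle covariate. It was 480 without slide 2, 1137 without slide 4 and 458 with the macrophage level of each array as a covariate, and with array median scaling 1853 genes were called, 59.4% of them higher against 40.5% here. The list counts fell alike: without slide 2 and with the macrophage covariate, respectively, 9 and 8 p53 targets, 7 and 9 replication genes, 1 and 1 mitosis genes, 1 and 2 repair genes, 2 and 2 interferon genes, 4 and 3 cholesterol genes and 2 and 2 ribosome biogenesis genes were called in the direction given above. Of 132 named genes that were called, 22 lost their call when some single array was left out, among them Ccnb1, Tnfaip3, Bcl2, Nfe2l2, Slc15a2, Ccn2, Gzmb, Cldn5, Kdr and Rgs5, and none reversed its direction under any alternative. Group and position on the slide went together on every slide, so that position and treatment cannot be told apart.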

How the data were processed

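Expression was measured on 16 one-colour Agilent arrays. Per the file headers, the deposited scanner files hold spot intensity on a linear scale, background-subtracted and detrended by Feature Extraction 10.7.3.1, with quality flags as other values. Version 9.5.3.1 is given in the submitters' processing notes. The authors' deposited value table, an intensity on a linear scale whose columns share a median of 31.9, was an alternative; its values show quantile normalisation (equal quartiles on all arrays).

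The log2 processed intensity minus each array's 75th percentile was used, without control and outlier-marked spots. Signal at that percentile was 213 to 521, the share of spots well above background 44.3% to 53.6%, and 0 spots were saturated; the number of arrays limits precision. Genes well above background on at least 4 of 16 arrays were kept, with the brightest probe for each gene, which left 15399. The accession named 26868 of the 41174 probes, the symbol 2900 and a synonym 351 (GRCm38.p6 table), and the rest kept the name in the file; positions are mm9 as the array annotation gives them.

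Models on 4 group means were fitted with limma 3.58.1 in R 4.3.3 (12 residual degrees of freedom), with Benjamini-Hochberg adjustment. The script was tested on simulated data. Summaries used pandas 2.3.3 in Python 3.11.15. Named genes were the 12 largest rises and 12 largest falls called without overlap, up to 6 called members of each list, 3 of each marker list, a fixed set, and up to 5 interaction genes per direction; a few genes that this rule names are not reported here. Members, gene lists and tests were chosen with earlier results of these data known.

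Replicate number equals slide. Deviations of same-number arrays correlated at -0.46 to 0.54 (median 0.06, above 0.1 in 9 of 24 pairs). Those of other pairs correlated at -0.60 to 0.45 (median -0.01, above 0.1 in 20 of 72 pairs). The slide block was kept as an alternative. Other alternatives were background, scaling, filter, probe summary, moderation, weights, marker covariates, the authors' table, and arrays or slides left out. Sequences are RefSeq promoter windows.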

Additional observations from a re-analysis of the deposited data

Results flagged for a closer look

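Among the named genes and the gene lists, 422 sets of 8 values were checked for 1 array far from the rest. The limit was a gap over range above 0.526, the 1 in 20 level for 8 values of 1 group. Of the sets, 16 stood out (3.79%). Each set pools tumours with and without ALA and the sets share arrays, so that this count cannot be set against chance. In irradiated tumours ALA+Xray replicate 3 stood apart for Mdm2 (2.65), Ccng1 (5.00) and Tyrp1 (7.33), all high, and for Nolc1 (-0.51), low. ALA+Xray replicate 4 was high for the keratins Krt5 (1.79) and Krt14 (0.73). ALA+Xray replicate 1 was low for the collagen enzyme P4ha2 (3.47), Xray replicate 1 low for Kdr (-1.93) and Xray replicate 4 high for Mzb1 (-2.94). In unirradiated tumours control replicate 1 was low for Blvrb (0.44) and high for Tyr (1.09), and control replicate 2 was low for Vwf (-2.26). ALA control replicate 1 was low for Dkc1 (-0.88), ALA control replicate 2 low for Rgs5 (-0.74) and high for Fabp4 (5.28), and ALA control replicate 3 high for Mcoln1 (2.86).

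The X-ray difference changed with ALA, by limma's interaction contrast at an adjusted p under 0.05, in 16 named genes. Up to 5 genes per direction were named for their small interaction p, so that the count of 16 is no result of its own. Over all 15399 genes 189 were called (1.23%). It was higher with ALA for Ccl8 (6.63), Adgre1 (5.78), Uox (5.77), Tlr7 (5.53), Trem2 (4.93), Itgax (4.78), Otulinl (4.67), C1qb (4.02), Lyz2 (3.99), Fli1 (3.01) and Cd68 (2.28). It was lower with ALA for Gp9 (-2.37), Tenm4 (-2.21), Epha1 (-1.54), Pex5 (-1.14) and Ptpn9 (-0.97). Uox, Tlr7 and Otulinl were well above background on few arrays, and with slide as a block the interaction was called for 8 genes in all, against 189. Adgre1, C1qb, Lyz2 and Cd68 are members of the macrophage list, so that their moving with its mean carries no information. The part of macrophages was not tested.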

How the results depend on the processing

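Of 3917 calls, array median scaling left 1853 (753 lower), array weights gave 6509 (2391 higher, 4118 lower), the macrophage covariate 458 (275 higher, 183 lower), a 2-fold minimum 606 (500 higher, 106 lower), and no filter on dim probes 1028 higher genes. Leaving out 1 array or 1 slide gave 480 to 5588 calls, 266 to 2112 higher and 214 to 3476 lower; the lowest of each was without slide 2, and the lowest without a single array was 2821 (control replicate 2). Interaction calls, 189 here, were 40 without the filter, 2023 with array weights, 4 with the muscle covariate, 0 with the macrophage covariate, and 0 to 1339 over arrays or slides left out. With slide (replicate number) as a block the X-ray count was 4156 and the interaction count 8. Same-number arrays had a median correlation of 0.06, against -0.01 for other pairs, which does not show that slides had no effect. Under the block 6 of 132 called named genes lost their call. Of these 132 genes 43 kept their call under all alternatives and 0 reversed; 81 were lost with the macrophage covariate, 83 without slide 2, 50 without slide 4 and 27 with median scaling. The cause of these moves was not tested. Dim probes limit, among others, Bglap, Pak3, Casp12, Epyc, Uox, Tlr7, Otulinl and Gzmb, which were near background in 1 group or on most arrays. The differences of Scml4, Slc13a4, Tmem82, Slc41a2 and Nr4a3 shrank with normexp as well.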
